A study of Mus musculus with 5 samples.

Results

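The genes described are 10 enzymes that remove superoxide and hydrogen peroxide or keep the removing enzymes reduced: the peroxiredoxins Prdx1, Prdx2, Prdx5 and Prdx6, thioredoxin Txn1, thioredoxin reductase Txnrd1, sulfiredoxin Srxn1, the superoxide dismutases Sod1 and Sod2, and catalase, Cat. They were taken by symbol from a comparison of 10664 genes deposited by the authors, and 10 of the 10 were present. The comparison sets keratinocytes with conditional deletion of Nrf2 (cKO, genotype K14Cre-ER; Nrf2 flox/flox, 2 samples) against those of wild-type littermates (WT, genotype K14Cre-ER; Nrf2 +/+, 3 samples). All cells were sorted from the skin around wounds 5 days after wounding, as live CD49f-positive cells, after removal of cells that bind a mix of antibodies to blood lineages (among them CD11b and Ter-119), and were profiled by RNA-seq. Both genotypes carry K14Cre-ER, a ligand-activated recombinase under the keratin 14 promoter, so that deletion is limited to keratin 14-expressing cells such as basal keratinocytes. The drug used to activate it, the deleted part of the gene, and the age and number of the animals are not given in the sources used here. The labels number the cKO samples as replicates 2 and 3 and the WT samples as 1, 2 and 3, with no cKO replicate 1. Which of these samples entered the comparison is not stated. Each gene has 1 log2 fold change, 1 mean level on the log2 CPM scale (CPM, counts per library total, as the authors head the column), 1 p-value and 1 false discovery rate (FDR) in the authors' deposited table. Values per sample and sequencing depth were not analysed here, so no spread between replicates can be given for any gene.

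Superoxide, released by mitochondria and by oxidases, is turned into hydrogen peroxide by superoxide dismutases. Peroxiredoxins, catalase and glutathione peroxidases then break the peroxide down, and the thioredoxin system returns oxidised peroxiredoxins to their working form at the expense of NADPH. Nrf2, the product of Nfe2l2, is a transcription factor that binds antioxidant response elements (AREs) together with small Maf proteins, and Prdx1, Txn1, Txnrd1 and Srxn1 are among its classical targets. Wounded epidermis makes much reactive oxygen, and its keratinocytes are known to raise Prdx6.

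Promoter stretches of 4 of the genes are shown because they hold the core of the element through which Nrf2 acts. They were read from RefSeq on GRCm38.p6, the assembly of mm10, in windows from 250 bases before to 50 bases after each start. Capitals mark matches of the ARE core TGACNNNGC or of TGANTCA, the site of AP-1, on either strand, and each line runs 5′ to 3′ on the transcribed strand.
Prdx1, chr4:116685349-116685494, plus strand: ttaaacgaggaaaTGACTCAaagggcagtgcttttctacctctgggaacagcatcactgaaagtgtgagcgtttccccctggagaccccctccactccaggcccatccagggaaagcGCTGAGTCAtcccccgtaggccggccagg
Txnrd1, chr10:82859094-82859142, plus strand: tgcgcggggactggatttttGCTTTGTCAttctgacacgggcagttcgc
Srxn1 before its start, chr2:152105402-152105505, plus strand: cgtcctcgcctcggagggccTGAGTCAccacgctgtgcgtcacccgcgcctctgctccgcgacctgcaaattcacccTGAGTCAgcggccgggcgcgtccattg
Srxn1 after its start, chr2:152105542-152105570, plus strand: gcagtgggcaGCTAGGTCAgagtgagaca
Sod1, chr16:90220686-90220734, plus strand: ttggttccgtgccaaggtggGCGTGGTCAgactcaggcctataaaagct

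Of 9 genes with a promoter in the RefSeq table, 4 held the ARE core, and 14.0% of all 27025 genes with one did. By window, 4 of 11 held it, beside 12.4% of all 32851. The match in Prdx1, 133 bases before its start, reads TGACTCAGC on the opposite strand and so overlaps an AP-1 match, a longer form that 0.454% of all windows hold. In Txnrd1, which has 3 windows in the table, the match lay in the second, 92 bases before that start. Sod1 held its match 56 bases before the start, and Srxn1 held it 28 bases after the start. AP-1 matches were found in Prdx1, at 237 and 131 bases before the start, and in Srxn1, at 102 and 45 bases before the start, against 7.81% of all windows. The Srxn1 match at 45 bases before the start continues as TGAGTCAGC. That is close to the longer form in Prdx1, but the ARE core as searched does not count it. Prdx2, Prdx5, Txn1, Sod2 and Cat held neither motif in these windows, and Prdx6 had no window. A match is a description of letters and does not show that a factor binds there.

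**Figure D1:**
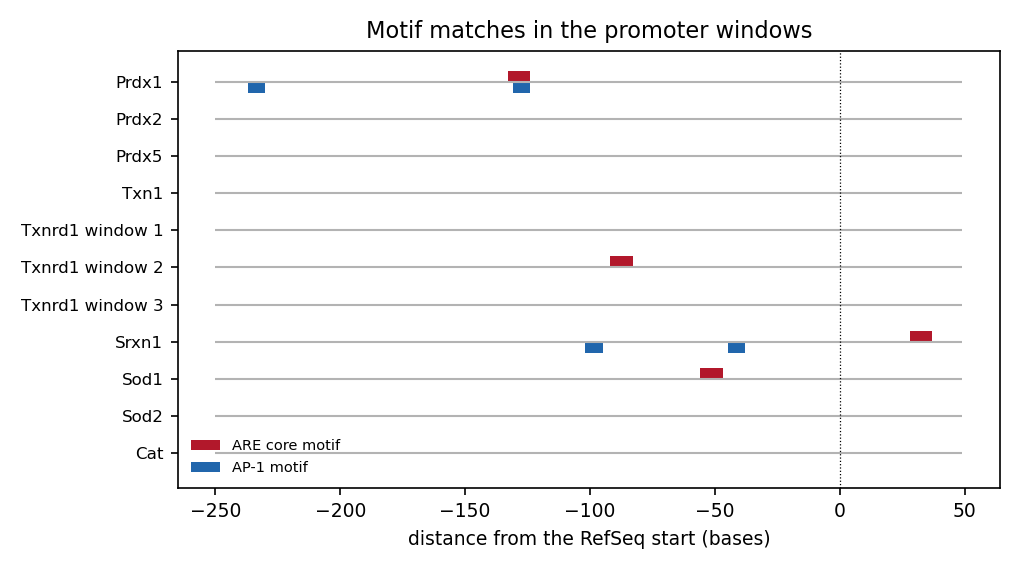
Positions of ARE core matches (red) and AP-1 matches (blue) in the RefSeq promoter windows of 9 genes, by distance in bases from the start (dotted line). Red bars appear in Prdx1, the second window of Txnrd1, Srxn1 and Sod1, and blue bars in Prdx1 and Srxn1 alone of these 9.

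The targeted gene was examined first. For Nfe2l2 the authors' deposited table lists a log2 fold change of -1.99 in cKO with p = 0.00478 and adjusted p = 0.126, so the gene did not pass. With an empirical null put to the p-values of the authors' deposited table it passed, at 0.0110 after adjustment. Its implied levels were 302 CPM in WT and 75.9 CPM in cKO, and how many of its reads fall in the deleted part is unknown. Levels in a genotype, here and below, were worked out from the mean level and the fold change of the authors' deposited table, with both genotypes weighing alike in the mean. Keap1 holds Nrf2 in the cytoplasm and marks it for breakdown. Its value was -0.79 with p = 0.273 in the authors' deposited table, and it was not called.

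Keratinocyte content was described with 6 marker genes. The authors' deposited table puts the basal keratins Krt5 and Krt14 at mean levels of 1198 and 894 CPM. Of the 6 markers 0 were called, which compares the genotypes and is no test of identity. The summed implied level of the 6 markers was 3995 CPM in WT and 3662 CPM in cKO. Markers of other cells moved in the same comparison. Endothelial markers were called lower in 5 of 6 genes, with summed implied levels of 149 CPM in WT and 15.7 CPM in cKO, and Flt1, Cdh5 and Eng fell, with log2 fold changes of -5.39, -4.01 and -3.91 in the authors' deposited table. Fibroblast markers were called lower in 4 of 4 genes, with 1016 CPM in WT and 102 CPM in cKO, and Dcn, Col3a1 and Col1a2 fell, with -4.23, -4.05 and -3.12 in the authors' deposited table. Melanocyte markers were called lower in 3 of 3 genes (108 and 20.7 CPM), and Mlana, Dct and Tyrp1 fell, with -3.39, -2.38 and -2.36 in the authors' deposited table. Of 4 listed neutrophil markers the table holds S100a8 and S100a9, which wound keratinocytes also express, and not Csf3r or Retnlg, and the sort removed CD11b-positive cells. Of this pair 1 was called: S100a9 fell by 2.48, while S100a8, at -1.83 with an FDR of 0.214, did not pass in the authors' deposited table. The summed level of the pair was 160 CPM in WT and 36.2 CPM in cKO. Pericyte markers (3 genes, 65.3 and 27.6 CPM), macrophage markers (3 genes, 12.5 and 10.7 CPM) and erythroid markers (2 genes, 4.63 and 10.2 CPM) had 0 called. In bulk RNA, fewer cells of a type and less RNA per cell cannot be told apart. Other cell types also express antioxidant enzymes, and the part of those cells in the values below was not tested.

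None of the 10 antioxidant genes was called as changed in cKO (0 of 10 at an FDR under 0.05 in the authors' deposited table), where 2.61% of all genes were called, 2.15% as lower and 0.459% as higher. Without adjustment, 0 of the 10 had a p-value under 0.05, against 8.36% of all genes and 49 of the 3969 genes at the same mean levels (35.0 to 606 CPM) in the authors' deposited table. At an FDR under 0.05, 15 of those 3969 were called, or 0.378%. Of the 3969, 1580 had lower and 2389 had higher values in cKO, with a median log2 fold change of 0.09. Of the 10 genes 5 values were lower and 5 were higher in cKO. The log2 fold changes of the 10 ranged from -1.04 (Sod1) to 0.54 (Srxn1) in the authors' deposited table. Their median absolute log2 fold change was 0.25, beside 0.37 over all genes and 0.24 over the genes at the same levels. The levels that the table implies, added over the 10 genes, were 1850 CPM in WT and 1754 CPM in cKO, or 94.8%. Much of this sum is Prdx1 (594 CPM in WT, 618 CPM in cKO) and Cat (391 CPM in WT, 304 CPM in cKO). Correction for gene length is unknown, so the sum is only a rough description and does not stand for each gene.

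**Figure D2:**
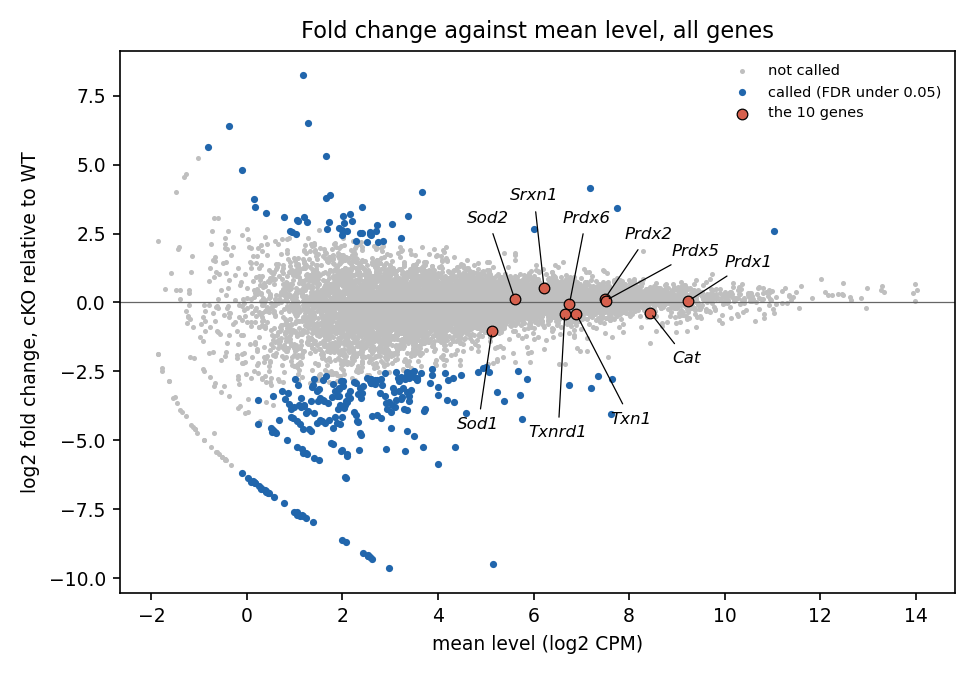
Log2 fold change in cKO relative to WT against mean level in log2 CPM, from the authors' deposited table, with 1 point for each of 10664 genes. The 10 antioxidant genes (red) lie inside the grey cloud of genes that were not called, and called genes (blue) lie mostly at lower levels, with a median of 4.27 CPM.

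The 4 peroxiredoxins lay close to 0. Prdx1 (chromosome 4, 116685544 to 116700822, plus strand, mm10), a cytosolic enzyme that is recycled by thioredoxin, is listed at 606 CPM on average in the authors' deposited table, with a log2 fold change of 0.06. Its implied levels were 594 CPM in WT and 618 CPM in cKO. Prdx2 (chromosome 8, 84969587 to 84974834, plus strand), a close cytosolic relative that is abundant in red blood cells, had a value of 0.14, with implied levels of 171 CPM in WT and 189 CPM in cKO. Prdx5 (chromosome 19, 6906697 to 6910106, minus strand), which is found in mitochondria, peroxisomes and cytosol, had a value of 0.07, with implied levels of 178 CPM in WT and 187 CPM in cKO. Prdx6 (chromosome 1, 161240112 to 161251219, minus strand), which draws on glutathione rather than thioredoxin and also acts on phospholipids, had a value of -0.06, with implied levels of 110 CPM in WT and 106 CPM in cKO. The 4 values lay between -0.06 and 0.14, each with an FDR of 1 in the authors' deposited table. With changes centred on the median of genes at 16 CPM or more, which was 0.07, Prdx1 and Prdx5 turned to -0.01 and -0.000917. Their sign thus depends on the centring. The p-values of the 4 ran from 0.805 (Prdx2) to 0.954 (Prdx6) in the authors' deposited table, so that no direction can be read for any of them. At the level of Prdx1, 88.4% of 241 genes of like level (within 0.5 on the log2 CPM scale) had a larger absolute change.

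Within the thioredoxin system the reductant pair and the repair enzyme had values of opposite sign, none of them past the threshold. In the authors' deposited table p was 0.543 for Txn1, 0.552 for Txnrd1 and 0.387 for Srxn1, each with an FDR of 1. Txn1 (chromosome 4, 57943373 to 57956411, minus strand), the small protein that hands electrons to peroxiredoxins and to ribonucleotide reductase, had a log2 fold change of -0.42 in the authors' deposited table. The standard error implied by that fold and its p-value was 0.69, and the implied levels were 136 CPM in WT and 102 CPM in cKO. Txnrd1 (chromosome 10, 82833951 to 82897712, plus strand), the selenium-containing enzyme that recharges Txn1 with electrons from NADPH, had almost the same value, -0.41, with an implied standard error of 0.69. Its implied levels were 115 CPM in WT and 86.5 CPM in cKO. Srxn1 (chromosome 2, 152105516 to 152111376, plus strand), which repairs peroxiredoxins that have been over-oxidised, had a value of 0.54 with an implied standard error of 0.62. Its implied levels were 60.9 CPM in WT and 88.3 CPM in cKO, the highest ratio of the 10 genes.

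Sod1 had the lowest value of the 10 genes. Sod1 (chromosome 16, 90220754 to 90226329, plus strand), the copper and zinc superoxide dismutase of the cytosol, had a log2 fold change of -1.04 with an implied standard error of 0.69, and did not pass. The authors' deposited table gives it p = 0.132 and adjusted p = 0.947. Its implied levels were 47.1 CPM in WT and 23.0 CPM in cKO, a ratio of 0.487. Among 1701 genes of like level, 2.76% had a lower value, and 4.06% had a larger absolute change. Sod2 (chromosome 17, 13006846 to 13040063, plus strand), the manganese enzyme of the mitochondrial matrix and a well-known NF-kB target, stood at 0.13 in the authors' deposited table, with implied levels of 46.4 CPM in WT and 50.9 CPM in cKO. The difference between Sod1 and Sod2 was not tested. Cat (chromosome 2, 103453849 to 103485160, minus strand), the heme enzyme that splits peroxide inside peroxisomes, had a value of -0.37 with an implied standard error of 0.69, and implied levels of 391 CPM in WT and 304 CPM in cKO. The authors' deposited table gives Cat p = 0.597 and Sod2 p = 0.818, with an FDR of 1 for both. For Cat 25.7% of 412 genes of like level had a larger absolute change, and 3.88% had a lower value.

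**Figure D3:**
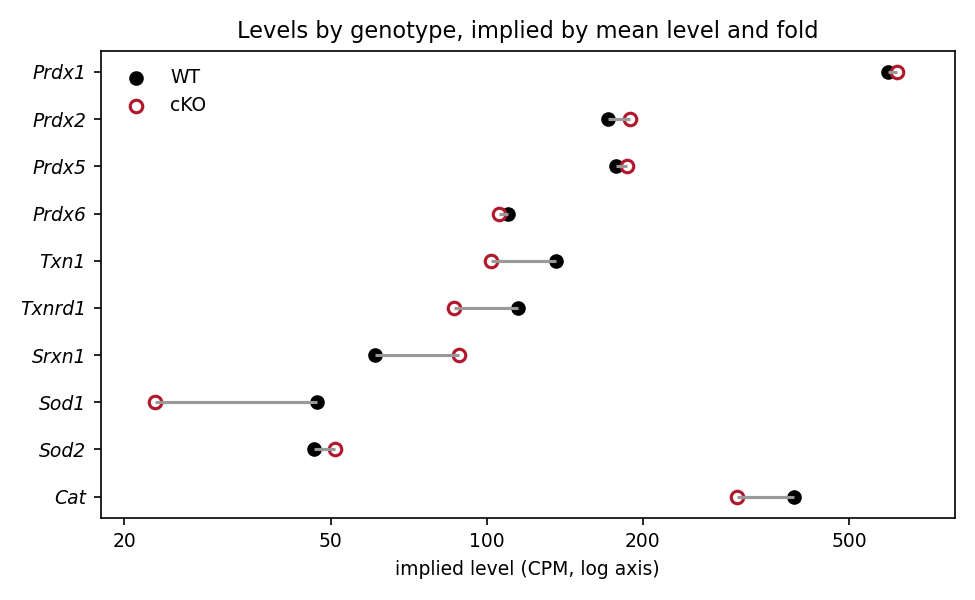
Levels in CPM (log axis) in WT (black) and cKO (open red) for the 10 genes, implied by the mean level and fold change in the authors' deposited table. Sod1 shows the widest gap, 47.1 against 23.0 CPM, and Srxn1 is the widest with the higher level in cKO, 60.9 against 88.3 CPM. Levels should be compared within a gene, since the values are not known to be corrected for length.

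The calls that were made give a scale for these values. Over all genes, called changes began at 2.20 on the log2 scale, and within the range of levels of the 10 genes it was 2.48 in the authors' deposited table. Among genes of like level to Sod1 the smallest called fall was -2.36, and 7 of the 1701 were called. For Txn1 the smallest called fall of like level was -2.67, for Txnrd1 -3.00, and for Srxn1 the smallest called rise was 2.68. At the level of Prdx1 0 of 241 genes were called, and at the level of Cat 0 of 412. These are the smallest calls seen and not limits of detection, and the one for Txnrd1 rests on 1 called gene of 1255. An FDR of 1 does not show that a gene stayed the same. The implied standard errors of the 5 genes with an absolute log2 fold change of 0.3 or more lay between 0.62 and 0.69. Those of Txn1, Txnrd1, Sod1 and Cat were almost alike, 0.688 to 0.691, at mean levels from 35.0 to 348 CPM. Srxn1, the gene at 0.62, alone among the 5 had a higher value in cKO. Rises and falls of the same size had unequal p-values in the authors' deposited table. Implied standard errors should therefore not be read as the replicate spread of each gene, and they are rough.

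**Figure D4:**
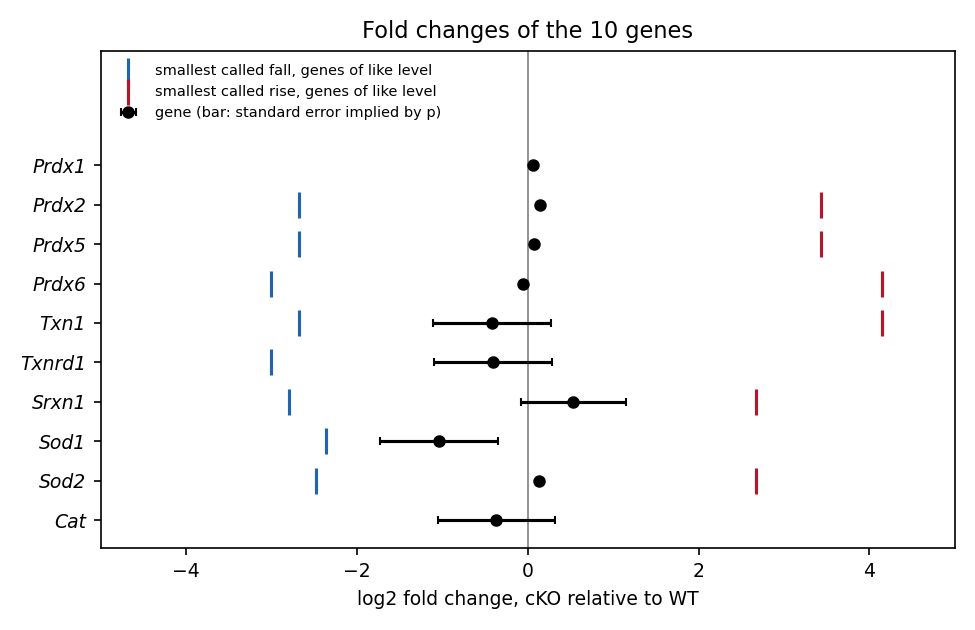
Log2 fold changes in cKO relative to WT for the 10 genes (black points). Bars show the standard error implied by the p-value for the 5 genes at 0.3 or more. The bars are rough, since rises and falls of the same size had unequal p-values. Blue and red ticks mark the smallest called fall and rise among genes of like level, from -2.36 (Sod1) outwards, and no point reaches a tick. Prdx1 and Cat have no ticks, and Txnrd1 and Sod1 no red tick, where no such gene was called.

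Several of the genes have near-copies, which bears on how their reads were assigned. Of the 50-base runs (the read length) in the coding sequence of Prdx1, 44.5% also occur in transcripts of other genes, all of them processed pseudogenes, led by Gm21399 with 30.7%. For Sod1 33.2% of the runs occur in the pseudogene Gm8566, for Prdx2 25.7% occur in pseudogenes, and for Txn1 9.40% occur in Txn-ps1. Prdx6 shares 1.08% with Prdx6b, and Prdx5, Txnrd1, Srxn1, Sod2 and Cat share 0 of their runs. RSEM, which the submitters' processing notes name, divides reads that match several transcripts, so the values of Prdx1, Prdx2, Txn1 and Sod1 carry an uncertainty whose size was not tested. Sod1 also overlaps the oppositely oriented gene Scaf4 by 650 bases, Prdx2 overlaps Junb by 351 bases and Rnaseh2a by 181 bases, and Prdx5 overlaps Trmt112 by 409 bases. The span of Txnrd1, introns included, overlaps Gm38560 by 13276 bases, Gm47073 by 1393 and Eid3 by 1305. Eid3 lies on the same strand as Txnrd1, so strand could not separate that overlap, and the other genes named lie on the opposite strand. The sources used here do not say whether strand was used in counting. Whether reads from these overlaps were told apart is therefore unknown. The log2 fold changes of Scaf4, Junb, Rnaseh2a and Trmt112 were -0.22, -0.18, 0.58 and -0.45 in the authors' deposited table.

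Beyond the 10 genes, lists of 77 related genes were examined, of which 68 were in the table. They cover other peroxidases, thioredoxin partners and clients, glutaredoxins, sestrins, the copper chaperone, selenoprotein synthesis and sources of superoxide and peroxide. Peroxisome genes, NF-kB response genes, FoxO genes, and Nrf2 with its partners are also among them. Of the 68 genes 2 were called, beside 2.61% of all genes, a share near that background. Both called genes were glutathione peroxidases, which remove peroxide with glutathione, and both were scarce. Gpx7, a peroxidase of the endoplasmic reticulum, is listed at 1.78 CPM in the authors' deposited table and fell by 4.99 in log2 terms, with adjusted p = 0.00516. Gpx2, an epithelial peroxidase and Nrf2 target, is listed there at 1.44 CPM and fell by 4.69 (adjusted p = 0.0114, from the authors' deposited table). Both lie under a level filter of 5 CPM, which removes them, and at a threshold of 0.01 Gpx2 does not pass. Their implied levels in cKO were both 0.108 CPM, so the size of each fall rests on how the authors treated values near 0. The other 4 listed glutathione peroxidases were not called: Gpx1, at 341 CPM, had -0.06, Gpx4, which protects membrane lipids, -0.10, the secreted Gpx3 -1.65 and Gpx8 1.51 in the authors' deposited table. Of the 6 genes 5 had lower values, with a median of -0.87.

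Among the remaining peroxiredoxins, Prdx4 of the secretory pathway is given a log2 fold change of -1.52 by the authors' deposited table, with p = 0.0364 and adjusted p = 0.494, and the mitochondrial Prdx3 one of 0.03. The 7 further thioredoxin system genes split into 3 lower and 4 higher values with 0 called, and Txnrd3 had -0.80, while Txnip, the thioredoxin inhibitor, had -0.15 and the mitochondrial Txn2 had -0.26 in the authors' deposited table. The 7 thioredoxin clients had lower values in 7 of 7 genes with 0 called and a median of -0.55, beside 0.00399 over all genes. Of these, the ribonucleotide reductase subunit Rrm2, which makes DNA precursors in dividing cells, had -1.46 (adjusted p = 0.503) and Msrb2, a methionine sulfoxide reductase at 0.536 CPM, had -2.48 in the authors' deposited table. Sestrins, stress proteins tied to peroxiredoxin repair, had lower values in 3 of 3 genes with 0 called, and Sesn3 had -0.52 in the authors' deposited table. In the glutaredoxins 2 of 4 values were lower with 0 called, and Glrx3 had 0.65 in the authors' deposited table. Ccs, the chaperone that loads copper into Sod1, had -0.15 beside the -1.04 of Sod1 itself in the authors' deposited table. Selenoprotein synthesis genes, on which Txnrd1 depends, had 3 lower and 3 higher values with 0 called, and Trnau1ap had 1.20 in the authors' deposited table. Of 11 listed sources of superoxide and peroxide 4 were in the table with 0 called, and the oxidase gene Duox1 had -0.88 in the authors' deposited table.

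**Figure D5:**
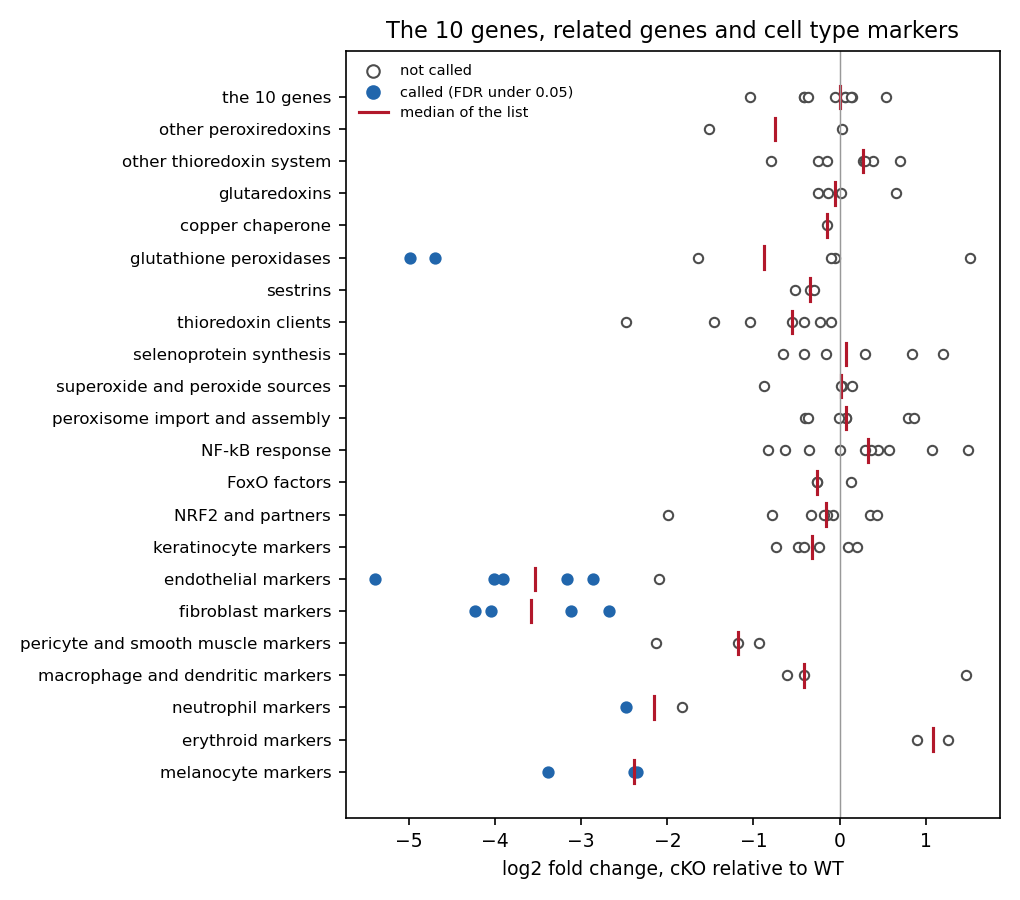
Log2 fold changes in cKO relative to WT of the 10 genes, the related lists and cell type markers, 1 point for each gene in the authors' deposited table. Filled blue points were called at an FDR under 0.05 and red lines are list medians. The 10 genes are spread around 0 with 0 called, while 5 of 6 endothelial and 4 of 4 fibroblast markers were called lower.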

How the data were processed

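Paired-end RNA-seq libraries of sorted wound keratinocytes (2 cKO, 3 WT) were trimmed with Trimmomatic 0.35, aligned with STAR 2.6.0c and quantified with RSEM on mm10, per the submitters' processing notes. The authors deposited a comparison of the genotypes, not values per sample: per the file headers, each gene has its log2 fold change, its average log2 CPM, its p-value and its FDR. The tool of the comparison, the libraries in it and the depth are not given in the sources used here. Nothing says whether samples came from separate animals, so any spread between samples behind the p-values may be technical. How far the p-values rest on a spread of each gene's own is not known. The title of the deposited table speaks of filtered TPM, of a pseudocount and of protein-coding, miRNA and lncRNA genes, so the CPM levels may have been made from TPM. Notes by the authors beside 2 negative values describe them as lower in WT or higher in KO, so the deposited log2 fold changes were turned round to cKO relative to WT.

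Genes were called at the authors' FDR under 0.05, which matched Benjamini-Hochberg values recomputed over all genes to within 7.17e-15. The implied standard error is the absolute log2 fold change divided by the normal z of the deposited p-value. Symbols were found for 10655 of 10664 genes, and positions came from GENCODE vM21. Adjustments were tested on simulated data, with SciPy 1.17.1 and NumPy 2.4.6 under Python 3.11.15. Tables were handled with pandas 2.3.3 and figures drawn with matplotlib 3.10.9. The 10 genes and all lists were chosen with earlier results of these data known. Named genes were the 10, Nfe2l2, Keap1, the called genes of each list (at most 3 for markers) and each pathway list's largest change. Further genes named for their role, such as Gpx1, Txnip, Rrm2 and Icam1, were chosen after their values were seen.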

Additional observations from a re-analysis of the deposited data

How the results depend on the processing

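The count of 0 called among the 10 genes was the same at a threshold of 0.01, with a level filter of 5 CPM, under the Benjamini-Yekutieli adjustment, under an empirical null and with a fold threshold of 1 on the log2 scale. Of 40 adjusted p-values for the 10 genes under the first 4 of these settings, 40 stayed above the threshold, and the lowest was 0.427 (Sod1, empirical null). The threshold of 0.01, Benjamini-Yekutieli and the fold threshold can only remove calls by construction. Over all genes 278 calls became 152 at the threshold of 0.01, 104 with the level filter, 116 under Benjamini-Yekutieli and 593 under the empirical null, which divides z by 0.804. Nfe2l2 ranged from an adjusted p of 0.0110 (empirical null) to 1 (Benjamini-Yekutieli). The falls of Gpx7 and Gpx2 did not pass under Benjamini-Yekutieli (0.0508 and 0.113 after adjustment of the values in the authors' deposited table) and passed under the empirical null (4.60e-05 and 0.000181). Centring on the median of all genes, on that of genes at 16 CPM or more or on a CPM-weighted trimmed mean shifted values by 0.00399, 0.07 and 0.03, and 2 of 30 centred values changed sign (Prdx1 and Prdx5). Weighing the genotypes by 3 and 2 samples moved implied levels by at most 6.45%. With the longer motif TGACTCAGC in place of the ARE core, 1 gene in place of 4 held a match. No paired analysis was possible because the comparison holds no value per sample, and leaving out a replicate could not be run for the same reason. Unknown depth and few samples limit what can be said of small changes.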

Other observations

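Regulators and surroundings of Sod2 and Cat gave no calls either. Of 10 NF-kB response genes, 7 had higher and 3 lower values in cKO with 0 called and a median of 0.33, beside the 0.13 of Sod2. Over all genes 5365 of 10664 values were higher, and at the levels of the 10 antioxidant genes 2389 of 3969. Relb, a subunit of the non-canonical pathway, had 1.49 (adjusted p = 0.372), the inhibitor gene Nfkbia 0.58 and the adhesion gene Icam1 -0.64 in the authors' deposited table. Of the FoxO genes, whose products are known to regulate both enzymes, the authors' deposited table gives Foxo1 0.13, Foxo3 -0.26 and Foxo4 -0.27. Of 7 peroxisome genes, whose products build the organelle that holds catalase, 4 had higher and 3 lower values with 0 called, and Pex13, part of the import machinery, had 0.87 beside the -0.37 of Cat in the authors' deposited table.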
